A study of Homo sapiens with 21 samples.

Results

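The L1CAM family consists of 4 adhesion molecules of the immunoglobulin superfamily, L1CAM, CHL1, NRCAM and NFASC (neurofascin), whose genes were 4 of the 53515 genes counted in each library. The members were found by their Ensembl identifiers and were chosen from measured values, namely their levels in these libraries and their differences between resistant and parental cell lines. Their levels and differences are therefore given as a description, with no test. Family members span the membrane once, with immunoglobulin and fibronectin domains outside the cell and a short tail that binds ankyrin, the adaptor to the spectrin and actin skeleton, inside it. They are best known from the nervous system, where they act in axon growth, in the assembly of nodes of Ranvier and in myelination. In carcinomas L1CAM is known from invasive tumour margins, where proteases such as ADAM10 release its outer part from the surface.

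RNA sequencing covered 21 libraries of 17 cultured human cancer cell lines, 7 parental and 10 made resistant to a drug. The sorafenib-resistant HepG2S1 and HepG2S3 came from the liver line HepG2, and the 5-fluorouracil-resistant PancB1Q and PancB1V from the pancreatic line PancVB. Among the lung lines, the erlotinib-resistant HCC4006ER came from HCC4006P1, the gefitinib-resistant HCC4006GR from HCC4006P2 and the gefitinib-resistant HCC827GR from HCC827P. Among the ovarian lines, the olaparib-resistant U10 and U100 came from UWB1.289, and the cisplatin-resistant IGROV-1/CDDP from IGROV-1. The parental lines are labelled sensitive and carry no drug label. The study graded 7 of the 10 pairs as full epithelial-to-mesenchymal transition and the 3 ovarian pairs as partial, and its genome profiling found larger copy number differences in the HepG2 pairs than in the others. Replicates, 2 libraries each, exist for the HCC4006P1 and HCC4006ER pair and for HepG2S3 and HepG2, while 13 cell lines had 1 library. Pairs from HepG2, from PancVB and from UWB1.289 share their parental libraries and are not independent. HCC4006P1 and HCC4006P2 carry the same cell line identifier in the paper, so their pairs may not be independent either. The comparison of each resistant line with its parental line addresses which genes differ after resistance was acquired.

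The deposited values are reads per gene. Library totals on genes ran from 9851195 in HepG2S1 to 36639473 in HepG2 replicate 1. Levels are given as CPM, which is the count scaled by the library's total on genes, with 95% Wilson intervals, and 3 counts, the floor used for folds against 0, equal 0.305 CPM in the smallest and 0.0819 CPM in the largest library. Intervals and floors cover counting error only. Replicate libraries differed by more than counting error, which alone would give a chi-square of about 1 per degree of freedom. HepG2 had 87.6, HCC4006P1 31.4 (before the stop described next), HepG2S3 12.9 and HCC4006ER 5.3. Whether these are separate cultures or repeated libraries of the same RNA is not stated, so a p-value measures the spread between these libraries only. As the samples are bulk RNA, fewer expressing cells and less RNA per cell cannot be told apart. HCC4006P1 replicate 1 stands apart because its counts stop within chromosome 7. Past the stop, 1679 genes reached 50 counts in replicate 2, and replicate 1 held none of them. Before the stop, it lacked only 1 of 9777 such genes. L1CAM on chromosome X and NRCAM on chromosome 7 lie past the stop, so HCC4006P1 is represented by replicate 2 alone in all levels and differences.

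Tissue markers were checked against the labels. The 5 liver markers summed to 16655 CPM in HepG2, of which ALB made up 12183, but to 0.812 CPM in HepG2S1 and 17.6 CPM in HepG2S3, where they were nearly lost. ALB, AFP, APOA1 and TTR had no count in HepG2S1. The 5 lung adenocarcinoma markers summed to 296 CPM in HCC4006P2, 24.6 in HCC4006GR, 101 in HCC827P and 30.2 in HCC827GR. They were near 0 in HCC4006P1 (0.205 CPM) and HCC4006ER (0.561 CPM), where NKX2-1 had no count in the libraries used for levels. Over both HCC4006P1 libraries, as CPM of genes before the stop, NKX2-1 averaged 0.0823, so these markers give little support to the lung label of the 2 lines. Of the 5 pancreatic duct markers, PancVB had KRT19 at 677 CPM and 3 genes at 1 CPM or more, PancB1Q and PancB1V were led by SOX9 at 194 and 205 CPM, and CFTR had no count in any of the 3. These markers do not set the pancreatic lines apart, since their sum of 775 CPM in PancVB was below the 1891 CPM of HCC4006P1 and the 1389 CPM of HCC4006P2. Among the 5 ovarian carcinoma markers, PAX8 was the most abundant in all 5 ovarian lines, from 357 CPM in UWB1.289 to 664 CPM in IGROV-1. WT1 and WFDC2 had no count in IGROV-1 or IGROV-1/CDDP, and the sum of the list was also high in HCC827P, at 646 CPM, of which MUC16 made up 618. The part of these markers in the differences below was not tested.

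On GRCh37, L1CAM (ENSG00000198910) lies on the minus strand of chromosome X from 153126969 to 153151627, and NRCAM (ENSG00000091129) on the minus strand of chromosome 7 from 107788068 to 108097161. NFASC (ENSG00000163531) lies on the plus strand of chromosome 1 from 204797779 to 204991950, and CHL1 (ENSG00000134121) on the plus strand of chromosome 3 from 238446 to 451100. The merged exons cover 7268 bases in L1CAM, 7975 in NRCAM, 11694 in CHL1 and 21271 in NFASC, and levels of different genes are compared only per kb of these lengths. CHL1 is overlapped by the antisense gene CHL1-AS1, which reached 0.45 CPM in HCC827GR and had no count in the other 16 cell lines, and by CHL1-AS2, which had no count. The strand setting of the counting is not stated, so overlapping antisense reads cannot be told apart.

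Promoters are shown because L1CAM and NRCAM were both higher in the HepG2-derived lines and L1CAM and NFASC both higher in the HCC4006-derived lines, as given below, so that a reader can compare the sequences at their starts. All 4 members had entries in the RefSeq promoter table of GRCh38.p14, a different build from that of the counts, with 10 entries in all, each from 250 bases before to 50 after a start. The entry listed first for each is printed 5′ to 3′ on the gene's strand. Capitals mark 3 motifs searched on both strands, the E-box read by SNAI and ZEB factors (CAGGTG or CACCTG), the TCF/LEF motif (CTTTGA or TCAAAG) and the GC box (GGGCGG or CCGCCC), and no matches overlapped. The windows are chrX:153875895-153876194 (minus) for L1CAM, chr7:108456387-108456686 (minus) for NRCAM, chr1:204828402-204828701 (plus) for NFASC and chr3:197639-197938 (plus) for CHL1.
L1CAM: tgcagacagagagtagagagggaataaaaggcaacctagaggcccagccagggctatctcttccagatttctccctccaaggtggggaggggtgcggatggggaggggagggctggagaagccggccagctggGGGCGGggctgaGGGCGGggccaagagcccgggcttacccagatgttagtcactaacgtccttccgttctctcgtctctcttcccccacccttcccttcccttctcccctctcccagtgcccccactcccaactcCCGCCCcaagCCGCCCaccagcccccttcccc
NRCAM: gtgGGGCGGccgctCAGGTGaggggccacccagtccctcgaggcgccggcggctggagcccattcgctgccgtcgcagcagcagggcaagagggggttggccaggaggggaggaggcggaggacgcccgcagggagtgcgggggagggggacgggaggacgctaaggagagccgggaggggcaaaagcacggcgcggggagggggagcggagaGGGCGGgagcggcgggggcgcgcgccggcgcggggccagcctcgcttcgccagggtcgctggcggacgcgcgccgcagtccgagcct
NFASC: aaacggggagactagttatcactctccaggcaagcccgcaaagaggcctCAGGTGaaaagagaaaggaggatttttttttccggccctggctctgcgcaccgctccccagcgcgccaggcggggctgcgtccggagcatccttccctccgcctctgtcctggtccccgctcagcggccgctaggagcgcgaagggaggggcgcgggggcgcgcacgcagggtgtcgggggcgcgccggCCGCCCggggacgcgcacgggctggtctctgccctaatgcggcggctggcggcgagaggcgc
CHL1: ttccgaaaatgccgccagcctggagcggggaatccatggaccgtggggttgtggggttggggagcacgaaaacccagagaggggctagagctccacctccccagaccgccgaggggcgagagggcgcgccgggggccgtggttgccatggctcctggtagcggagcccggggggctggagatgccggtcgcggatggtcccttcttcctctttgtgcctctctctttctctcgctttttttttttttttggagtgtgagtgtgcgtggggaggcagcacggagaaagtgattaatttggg
The GC content of these windows was 64.7% in L1CAM, 78.0% in NRCAM, 70.7% in NFASC and 61.7% in CHL1, against a median of 58.7% over 35116 promoters. CpG dinucleotides numbered 10, 38, 35 and 20 in the same order, against a median of 14, so that NRCAM and NFASC were the CpG-rich windows of the 4 printed. L1CAM held 4 GC boxes and no E-box, NRCAM 2 GC boxes and 1 E-box, NFASC 1 of each, and CHL1 neither. The TCF/LEF motif was in none of these 4 windows, but NRCAM entry 3, not printed, held it at -56. NRCAM entries 2 and 3, with 1 and 3 CpG and 42.7% and 35.0% GC, were unlike entry 1. NFASC entry 2, also not printed, had 9 CpG, 55.0% GC and none of these motifs. CHL1 entry 3 had 2 CpG and 31.3% GC. Which of the entries is in use in these cell lines was not tested. Of all promoters of this length, 20.6% held the E-box, 12.9% the TCF/LEF motif and 45% the GC box. A match is a description of letters and not of a bound site.

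L1CAM, the founding member, binds itself, integrins and other family members across cell contacts. Its level was 38.3 and 91.3 CPM in the HepG2 libraries, 317 CPM in HepG2S1, and 507 and 480 CPM in the HepG2S3 libraries. Both sorafenib-resistant lines lay above both HepG2 libraries, although these differed widely from each other. In the pancreatic lines it was 10.9 CPM in PancVB, 220 in PancB1Q and 335 in PancB1V. The lung lines had 26.5 CPM in HCC4006P1, 150 and 211 in the HCC4006ER libraries, 5.29 in HCC4006P2, 51.6 in HCC4006GR, 0.923 in HCC827P and 3.22 in HCC827GR. Each resistant line was again above its own parental line, and the HCC827 values rest on 16 and 50 counts, with intervals of 0.568 to 1.5 and 2.44 to 4.24 CPM. The ovarian lines had 308 CPM in UWB1.289, 647 in U10, 660 in U100, then 14.3 for IGROV-1 and 120 for its derivative IGROV-1/CDDP. Parental lines ran from 0.923 to 308 CPM with a median of 14.3, and resistant lines from 3.22 to 660 CPM with a median of 268, so that the groups overlapped although every resistant line exceeded its own parental line.

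**Figure D1:**
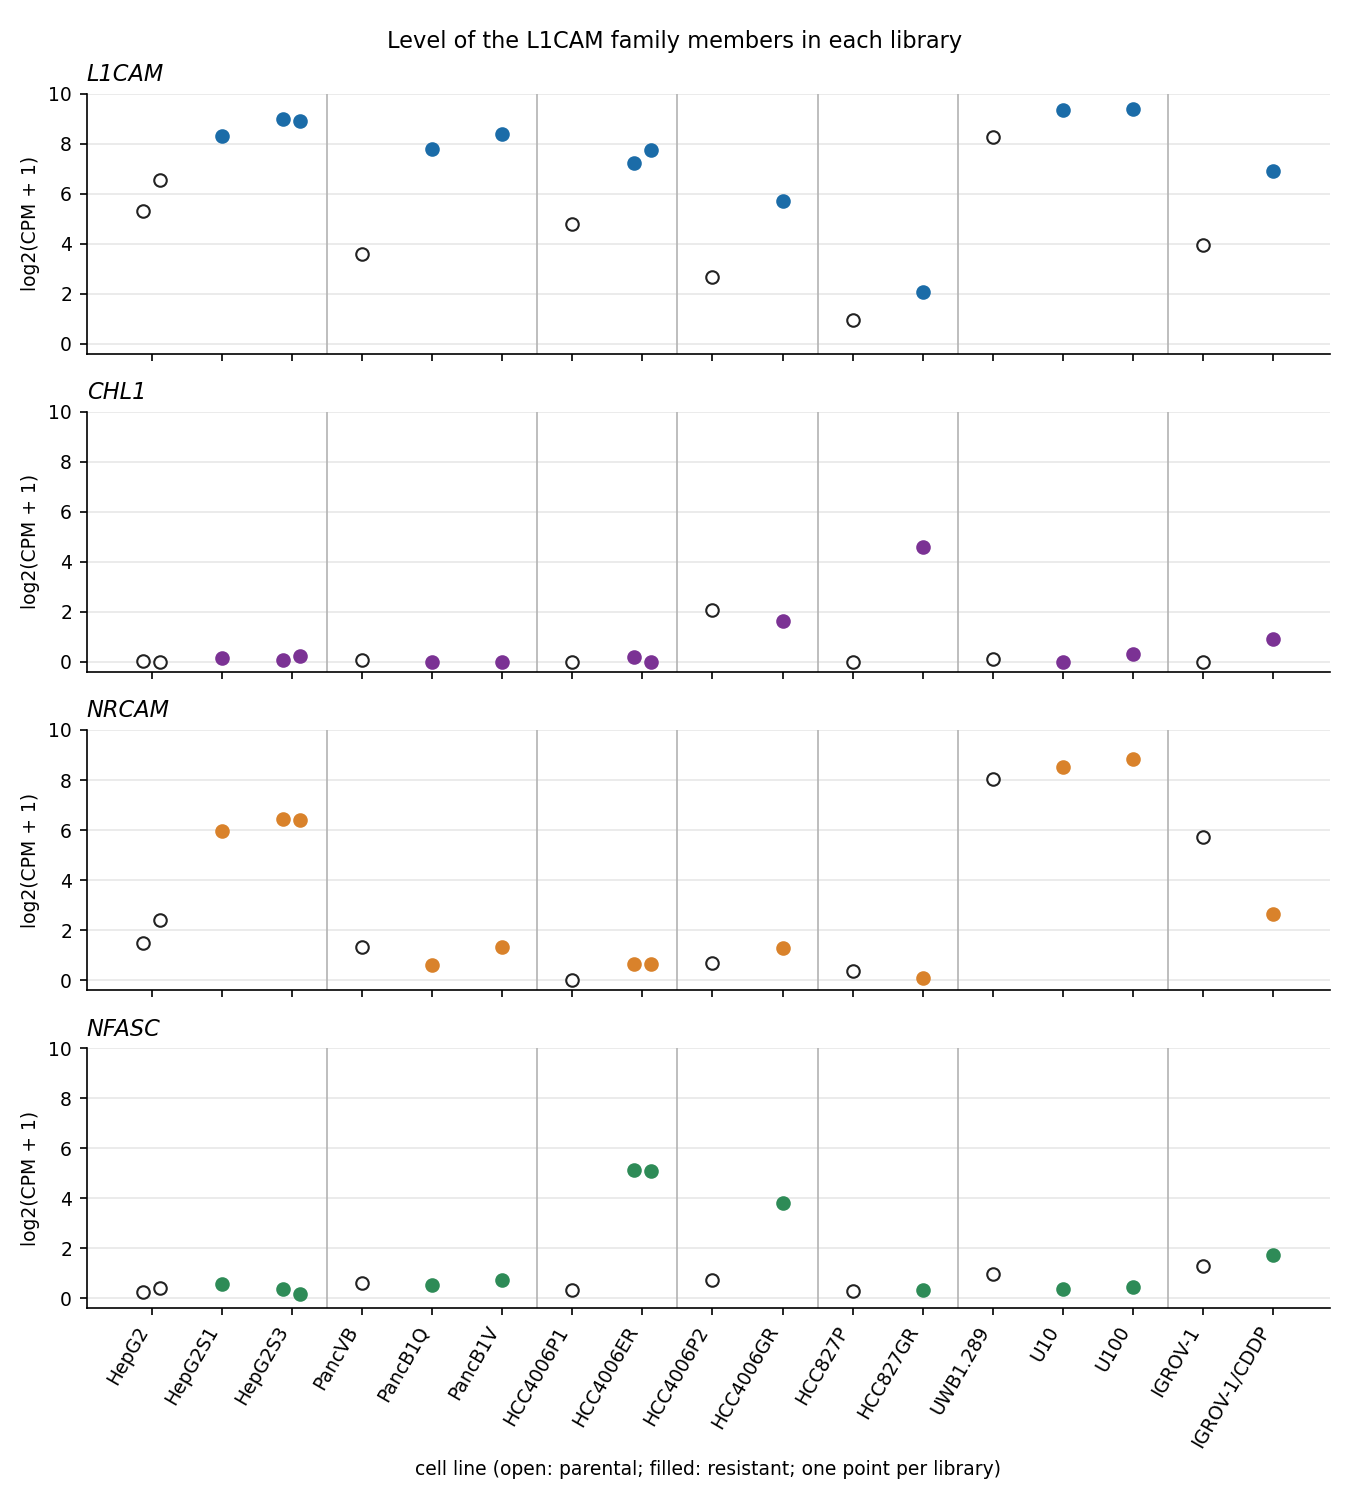
Level of each family member in every library used, as log2(CPM + 1), with 1 point per library, open for parental and filled for resistant cell lines; grey lines separate families of cell lines, and HCC4006P1 is drawn from replicate 2. L1CAM is above 1 CPM in all lines but HCC827P, while CHL1 is near 0 outside 4 lines.

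Ordered by level, L1CAM was highest in U100 and U10, whose intervals of 647 to 675 and 631 to 662 CPM overlap. HepG2S3 followed with a mean of 493 CPM (SD 19.2, n = 2), and then PancB1V, HepG2S1 and UWB1.289. HepG2S1 and UWB1.289 did not differ beyond counting error, with intervals of 306 to 328 and 299 to 319 CPM. PancB1Q, at 220 CPM, lay above both HCC4006ER libraries but within 1 SD of their mean of 181 CPM (SD 43.7, n = 2). HepG2, with a mean of 64.8 CPM (SD 37.5, n = 2), and HCC4006GR could not be ordered either, since 51.6 CPM lies between the HepG2 libraries. L1CAM reached at least 1 CPM in 16 of 17 cell lines, at least 10 CPM in 14 and at least 100 CPM in 9.

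Differences between a resistant line and its parental line are given as log2 of CPM + 1, where 1 is a doubling. The L1CAM difference was 2.27 in HepG2S1 (4.89-fold) and 2.91 in HepG2S3 (7.62-fold). Over pairings of libraries it ran from 1.78 to 3.02 and from 2.38 to 3.69, and without HepG2 replicate 2 the HepG2S3 difference was 3.65. It was 4.21 in PancB1Q (20.1-fold) and 4.82 in PancB1V (30.7-fold), the largest of the 10 pairs. In the lung lines it was 2.72 in HCC4006ER (6.81-fold), 3.06 in HCC4006GR (9.76-fold) and 1.13 in HCC827GR (3.48-fold). The counting interval in HCC827GR, 0.65 to 1.56, reaches below a doubling. In the ovarian lines it was 1.07 in U10 (2.1-fold), 1.10 in U100 (2.14-fold) and 2.98 in IGROV-1/CDDP (8.36-fold). L1CAM was thus higher by at least 1 in 10 of 10 pairs, with a median of 2.82, including all 7 pairs graded full and all 3 graded partial.

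All expressed genes had a median difference of 0.25 (HepG2S1), 0.28 (HepG2S3), -0.12 (PancB1Q) and 0.16 (HCC4006ER). With TMM-scaled library sizes these medians were -0.17, -0.11, 0.08 and 0.00. The L1CAM differences with that scaling were 1.82, 2.49, 4.43 and 2.56 in these 4 lines, and no member difference past 1 in either direction turned sign or came below 1 under it.

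NRCAM binds contactins and neuropilins and helps gather sodium channels at nodes of Ranvier. Its level was 1.77 and 4.36 CPM in the HepG2 libraries, 61.8 in HepG2S1, and 86.3 and 84.3 in the HepG2S3 libraries. The sorafenib-resistant lines did not overlap HepG2, with differences of 3.95 in HepG2S1 (20.2-fold, 3.55 to 4.50 over pairings) and 4.41 in HepG2S3 (27.8-fold, 3.99 to 4.98 over pairings). The ovarian lines were the other place of high levels, with 260 CPM in UWB1.289, 368 in U10, 462 in U100, then 52.5 for IGROV-1 and 5.30 for its derivative IGROV-1/CDDP. U10 and U100 exceeded UWB1.289 by 0.50 and 0.83, while IGROV-1/CDDP lay below IGROV-1 by 9.9-fold, a difference of -3.09 (counting interval -3.30 to -2.87). Opposite differences of the same gene were thus seen in the HepG2 and IGROV-1 backgrounds. The pancreatic lines had 1.52 CPM in PancVB, 0.525 in PancB1Q (a difference of -0.72) and 1.53 in PancB1V (0.01). In the lung lines NRCAM had no count in HCC4006P1, 0.557 and 0.565 CPM in the HCC4006ER libraries, 0.588 in HCC4006P2, 1.46 in HCC4006GR, 0.288 in HCC827P and 0.0643 in HCC827GR. HCC4006ER was at least 3.64-fold higher than HCC4006P1, against a floor of 3 counts in its library, and the remaining lung values rest on 1 to 22 counts. The interval of HCC4006GR, 0.962 to 2.21 CPM, lies above those of HCC827P (0.123 to 0.675) and HCC827GR (0.0114 to 0.364), and its difference from HCC4006P2 was 0.63 (counting interval 0.08 to 1.11).

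NFASC anchors the axon initial segment and nodes through ankyrin and binds gliomedin and contactin. Its level was 0.256 CPM in HCC4006P1 and 33.7 and 33.2 CPM in the HCC4006ER libraries, and 0.661 CPM in HCC4006P2 and 13 CPM in HCC4006GR. Both resistant HCC4006 lines stood far above their parental lines, by 4.78 in HCC4006ER (130-fold, counting interval 4.42 to 4.97) and by 3.07 in HCC4006GR (19.6-fold, 2.59 to 3.43). HCC827P and HCC827GR, the remaining pair of lung lines, had 4 counts each, or 0.231 and 0.257 CPM. IGROV-1 had 1.42 CPM and IGROV-1/CDDP 2.29 CPM, a difference of 0.45. In the other lines, values ran from 0.131 CPM in HepG2S3 replicate 2 to 0.946 CPM in UWB1.289. NFASC was therefore confined to low counts outside the resistant HCC4006 lines and the IGROV-1 lines at this depth, with at least 1 CPM in 4 of 17 cell lines.

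CHL1, the close homologue of L1CAM, guides neurite growth and interacts with integrins. It had no count in HCC827P and 358 counts, 23.0 CPM, in HCC827GR, which was at least 133-fold higher against the 3-count floor of HCC827P (a difference of 4.59 with 1 CPM added). HCC4006P2 had 3.16 CPM and HCC4006GR 2.12 CPM, from 43 and 32 counts, a difference of -0.42 whose counting interval of -0.88 to 0.06 includes 0. IGROV-1 had no count and IGROV-1/CDDP had 0.87 CPM from 22 counts, at least 7.97-fold higher. The other libraries held 5 counts or fewer, at most 0.229 CPM as a mean over a cell line, so CHL1 was detectable in few lines. A count of 0 leaves an upper limit of 0.222 CPM in HCC827P and 0.375 CPM in U10, the widest of these limits.

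Across the 4 members and 10 pairs, 16 of 40 differences were past 1, 15 with the resistant line higher and 1 with it lower. In HepG2S1 and HepG2S3, L1CAM and NRCAM made 2 of 4 members higher by at least 1, against 25.5% and 27.3% of all genes with at least 1 CPM on either side, while 0 members were lower by at least 1, against 18.4% and 17.7%. In PancB1Q and PancB1V, L1CAM alone was 1 of 4, against 6.10% and 8.89% higher and 9.41% and 7.25% lower among all genes. On this scale the HepG2 lines had a further member beside L1CAM and the pancreatic lines had none. HCC4006ER and HCC4006GR had L1CAM and NFASC, 2 of 4 each, against 15.2% and 7.75% higher and 9.67% and 7.47% lower. HCC827GR had L1CAM and CHL1, 2 of 4, against 10.6% higher and 7.67% lower. All 3 lung pairs had a further member, which was not the same in each. U10 and U100 had L1CAM, 1 of 4, against 6.27% and 6.43% higher and 5.11% and 1.73% lower. IGROV-1/CDDP had L1CAM higher and NRCAM lower, 1 of 4 each, against 5.55% higher and 7.21% lower among all genes. The counts are out of all 4 members, while the percentages cover genes with at least 1 CPM on either side, which 2 members reached in 8 of the pairs, 3 in IGROV-1/CDDP and 4 in HCC4006GR. Since the members were chosen from these contrasts, nothing is read from these counts. On this scale, L1CAM was past 1 in every pair, joined by NRCAM in the HepG2 lines, NFASC in the resistant HCC4006 lines and CHL1 in HCC827GR. Which further members are past 1 depends on the 1 CPM added. With 0.1 CPM, 23 of 40 differences were past 1, among them CHL1 in IGROV-1/CDDP (3.28) and NRCAM in HCC4006ER (2.72), HCC4006GR (1.18), PancB1Q (-1.37) and HCC827GR (-1.24). NFASC in U10 (-1.41) and U100 (-1.12) came past it as well, all of these at low counts.

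**Figure D2:**
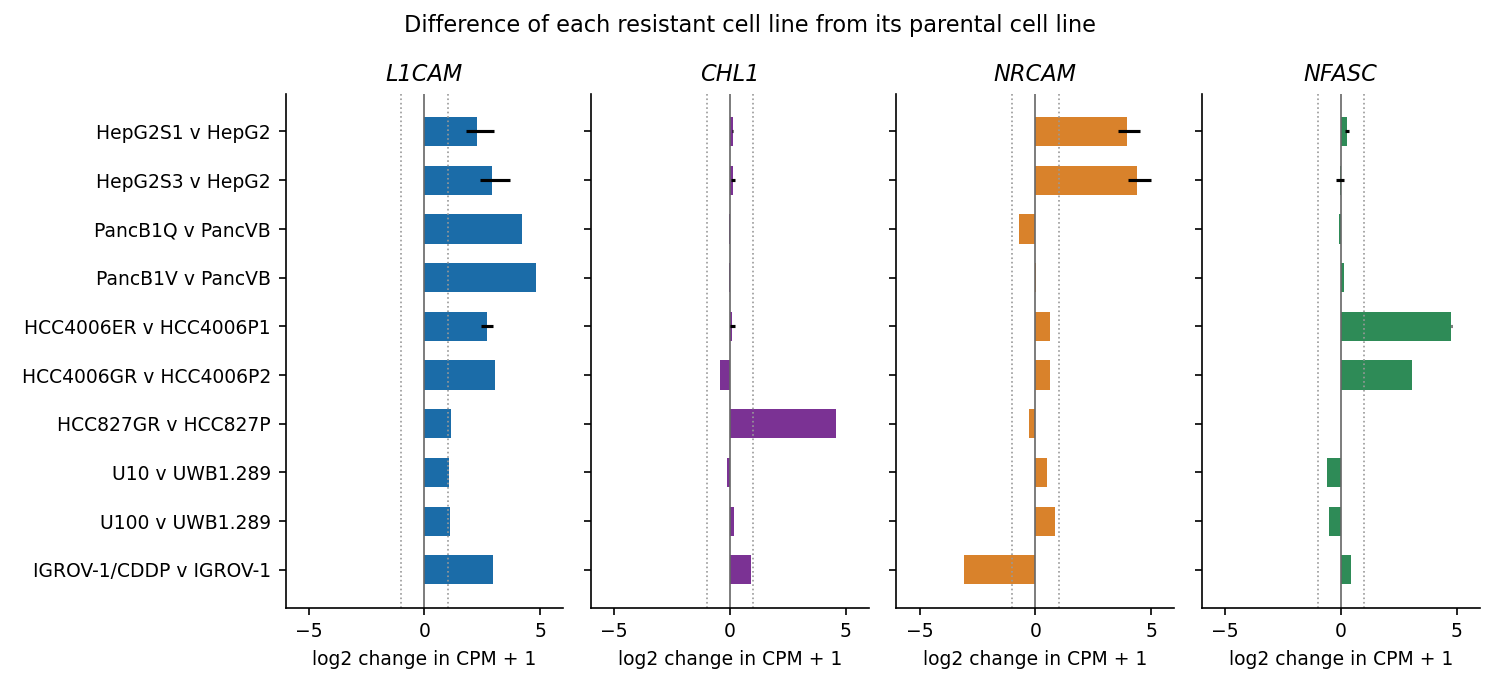
Difference of each resistant cell line from its parental line in log2 of CPM + 1 for the 4 members, with dotted lines at 1 and -1 and black bars spanning the pairings of replicate libraries where a line had 2. L1CAM is past 1 in all 10 pairs, from 1.07 to 4.82, and NRCAM has differences past 1 in both directions.

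Averaged over the resistant lines of each parental line, the L1CAM difference was 2.59 for HepG2, 4.52 for PancVB, 2.72 for HCC4006P1, 3.06 for HCC4006P2, 1.13 for HCC827P, 1.08 for UWB1.289 and 2.98 for IGROV-1. Among these backgrounds, HCC4006P1 and HCC4006P2 share a cell line identifier. Of 19068 genes with at least 1 CPM in some cell line, L1CAM was the only gene with an average of at least 1 in each of the 7 parental backgrounds, 1 gene or 0.00524%. This count was made after the values were seen and on the contrasts that chose the members, so nothing is read from it beyond the description. With TMM-scaled library sizes and with each replicate left out in turn it remained L1CAM alone. With 0.1 CPM added instead of 1 CPM the count was 4, with L1CAM among them.

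The family's make-up was compared per kb of exon. L1CAM led in 15 of 17 cell lines, with shares of the family total from 56.5% in UWB1.289 to 99.7% in PancB1Q and HCC4006P1. NRCAM led in IGROV-1 with 76.4%, where L1CAM had 22.8%, and in IGROV-1/CDDP the order was turned, with 95.1% L1CAM and 3.84% NRCAM. CHL1 led in HCC827GR with 81.0%, whereas in HCC827P L1CAM had 73.0% of a small total. NRCAM had 43.4% in UWB1.289, 34.2% in U10 and 38.9% in U100, so the UWB1.289 lines carried both members at high levels. The family total was lowest in HCC827P at 0.174 CPM per kb and highest in U100 at 149 CPM per kb.

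**Figure D3:**
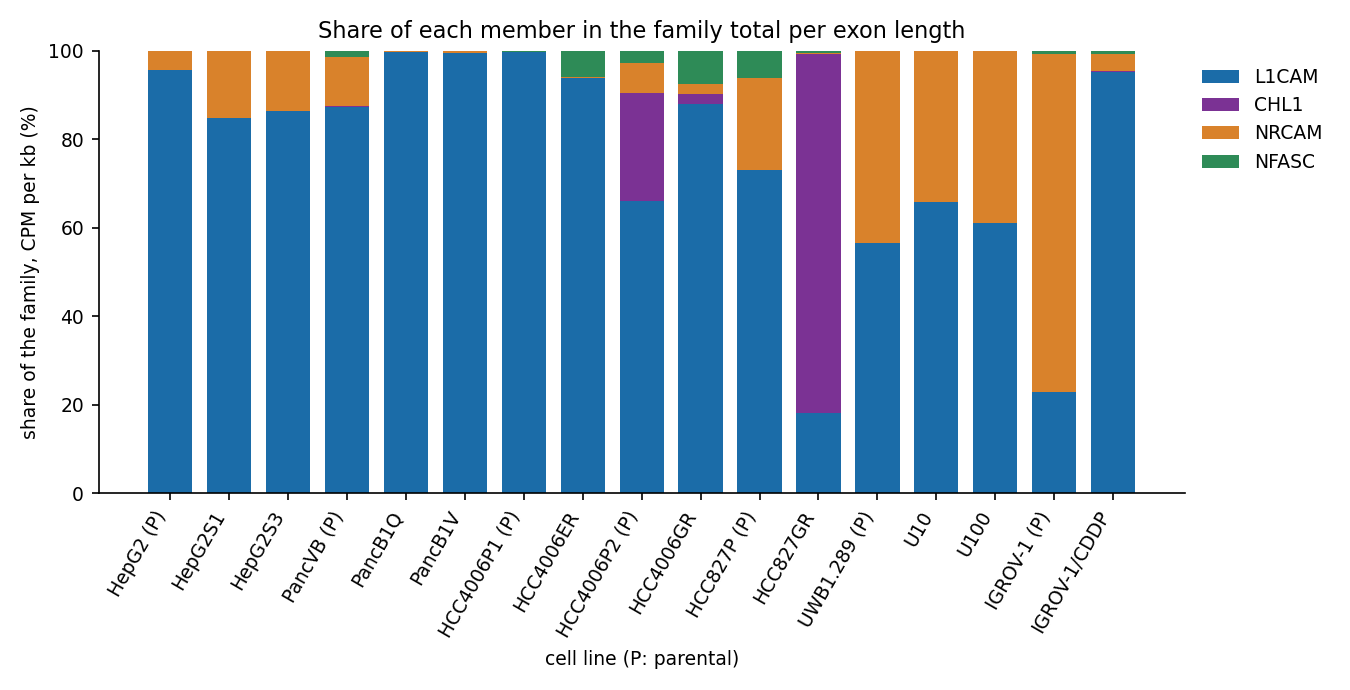
Share of each member in the summed CPM per kb of exon of the family, in percent, for each cell line, with P marking parental lines. L1CAM takes the largest share in 15 of 17 lines, NRCAM in IGROV-1 (76.4%) and CHL1 in HCC827GR (81.0%).

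Resistant lines of the same parental line differed less in L1CAM from each other than from that parental line. L1CAM was 1.56-fold higher in HepG2S3 than in HepG2S1, 1.53-fold higher in PancB1V than in PancB1Q and 1.02-fold higher in U100 than in U10. These L1CAM ratios were smaller than its differences from the parental lines, which were 2.1-fold or more. HCC4006ER and HCC4006GR, whose parental lines share a cell line identifier, lay further apart, at 181 and 51.6 CPM. NRCAM was 1.38-fold higher in HepG2S3 than in HepG2S1, 1.25-fold higher in U100 than in U10 and 2.91-fold higher in PancB1V than in PancB1Q, the last from 38 and 15 counts. Over the 17 cell lines, which are not independent since derived lines share a parent, the Pearson correlation of log2(CPM + 1) was 0.63 between L1CAM and NRCAM and -0.46 between L1CAM and CHL1. The other 4 correlations ran from -0.33 to 0.10.

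The genes whose pattern over the 17 cell lines was most like that of L1CAM were TMEM14C (r = 0.86, rho = 0.88), OSBPL6 (r = 0.86, rho = 0.87) and RANBP9 (r = 0.85, rho = 0.79), among 12386 protein-coding genes reaching 10 CPM in some line. For NRCAM they were PRDX2 (r = 0.94, rho = 0.89), SLC48A1 (r = 0.94, rho = 0.87) and ZNF208 (r = 0.92, rho = 0.77). The best matches of NFASC were TENM2, RFLNA and ALX4, with r of 0.94, 0.94 and 0.93 but rho of only 0.57, 0.47 and 0.74. Those of CHL1 were IL13RA2, RTL1 and TDO2, with r of 0.91, 0.89 and 0.89 and rho of 0.55, 0.21 and 0.68. With 0.1 CPM added, the genes were the same for L1CAM and NRCAM, but became CPEB2, IL13RA2 and RUFY3 for CHL1 and PCBP3, ALX4 and TENM2 for NFASC. The matches of NFASC and CHL1, which have few lines with high levels, thus depend on the scale. RANBP9 is also on the list of cytoplasmic partners below. It had no call in the edgeR tests of the replicated pairs, with log2 fold changes of -0.17 in HepG2S3 and 0.32 in HCC4006ER.

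Genes next to the members were compared to see whether the differences extended to the surroundings. Neighbours are the nearest genes on either side that reached 10 CPM in some cell line. PDZD4, 30.9 kb from L1CAM, differed by -0.08 to 2.32 over the pairs, with a median of 0.84. ARHGAP4, 21.2 kb away on the other side, differed by -2.04 to 1.00, with a median of 0.40. Its highest difference, in U10, was near the L1CAM difference of 1.07 there, with plain CPM ratios of 2.03 and 2.1. PDZD4 was higher by at least 1 in HepG2S1 (1.01), PancB1Q (1.57), PancB1V (2.32), HCC4006ER (1.67) and IGROV-1/CDDP (1.35), at levels of at most 20.0 CPM. With 1 CPM added its difference was below that of L1CAM in all 10 pairs, but its plain CPM ratio was above that of L1CAM in HepG2S1 (6.03 against 4.89) and HCC4006ER (7.05 against 6.81). Near NRCAM, PNPLA8 at 13.7 kb ran from -0.40 to 1.02 and LAMB1 at 144 kb from -0.75 to 1.80. Near NFASC, RBBP5 at 63.3 kb ran from -0.23 to 1.00 and LRRN2 at 143 kb from -1.63 to 0.62. CNTN4, 1689 kb from CHL1, ran from -0.36 to 0.83. NFASC in the resistant HCC4006 lines differed by more than its neighbours did in the same pairs. CNTN4 had 0.115 CPM in HCC827P and 0.257 CPM in HCC827GR, near the 3-count floors of 0.173 and 0.193 CPM. At that level and distance it cannot show whether the CHL1 difference in HCC827GR extended to its surroundings.

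**Figure D4:**
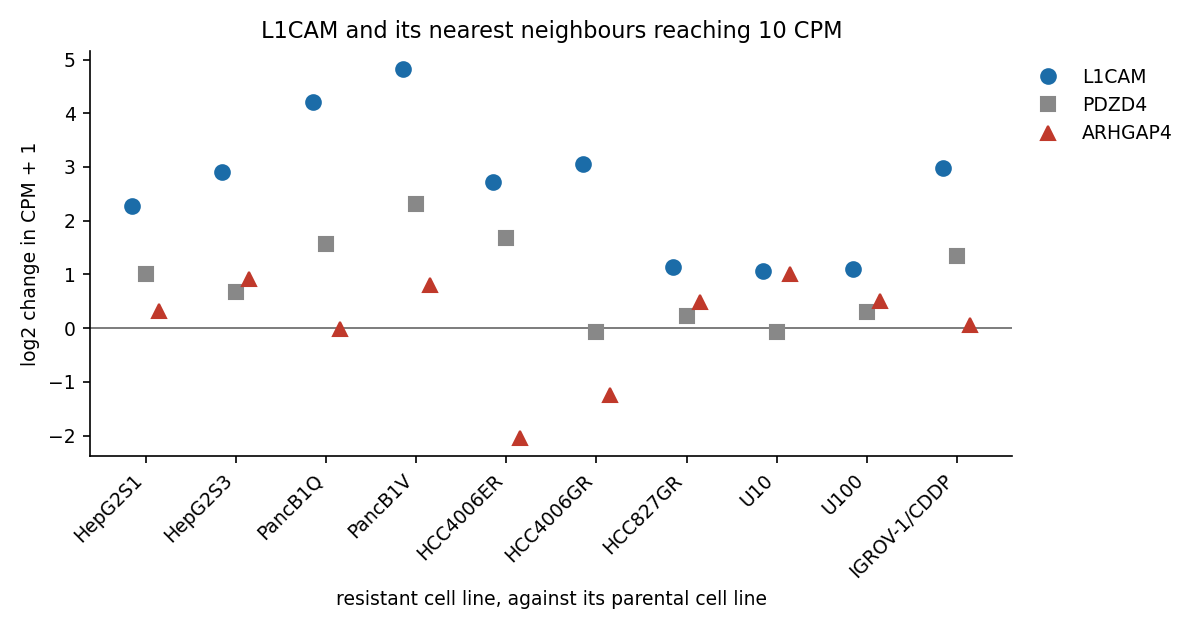
Difference in log2 of CPM + 1 between each resistant cell line and its parental line for L1CAM (circles), PDZD4 (squares) and ARHGAP4 (triangles). ARHGAP4 reaches -2.04 in HCC4006ER, and the added 1 CPM lowers the differences of PDZD4, which had 0.253 CPM in HepG2.

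As the family is best known from neurons and glia, 11 matched markers of these cells were read in every line. They summed to 71.0 CPM in HepG2, 72.0 in HepG2S1 and 128 in HepG2S3, with MAP2 at 57.4 and 121 CPM the most abundant in the resistant lines. They summed to 4.1, 5.99 and 7.89 CPM in PancVB, PancB1Q and PancB1V. In the lung lines the sums were 19.0 in HCC4006P1, 9.24 in HCC4006ER, 24.6 in HCC4006P2, 33.6 in HCC4006GR, 1.79 in HCC827P and 3.09 in HCC827GR. The sums had no shared increase in the lung lines, where L1CAM was higher in each resistant line. In the ovarian lines the sums were 30.1 in UWB1.289, 19.7 in U10, 29.4 in U100, then 17.1 for IGROV-1 and 39.3 for its derivative, led by MAP2 or, in the IGROV-1 lines, SNAP25. SNAP25 was higher in 9 of the 10 resistant lines than in their parental lines, for instance 1.47 and 1.37 CPM in PancB1Q and PancB1V against 0.0921 in PancVB, and had no count in HCC4006P2 or HCC4006GR. The part of these markers in the L1CAM differences was not tested. At most 5 of the 11 reached 1 CPM in any line. S100B had no count in 13 of 17 lines and ELAVL4 in 14 of 17, while TUBB3 and NEFL could not be matched.

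Partner and related genes were listed by role, with earlier results of these data known, in 5 lists of 78 genes, of which 77 were matched (ITGB3 was not). For the 2 replicated pairs, edgeR's quasi-likelihood test was run over all genes. HepG2S3 against HepG2 gave 5308 genes up (31.4%) and 5436 down (32.1%) of 16929 at a Benjamini-Hochberg adjusted p under 0.05. Of 59 tested partner genes, 19 were up, 24 were down and 16 had no call, with a median log2 fold change of -0.17 against -0.01 over all genes. HCC4006ER against HCC4006P1 was tested on genes before the stop only, with levels in that test as CPM of those genes alone, and gave 3084 up (24.1%) and 3182 down (24.9%) of 12791. Without HCC4006ER replicate 1 the number called was 4051 instead of 6266. There, 22 of 52 tested partner genes were up, 9 were down and 21 had no call, with a median of 0.26 against 0.01 over all genes, and 12 lay past the stop. Of the 9 that fell in HCC4006ER, 5 kept their call without either HCC4006ER replicate and 4 when genes past the stop were kept. The share of partner genes called up in HepG2S3 was near that of all genes, while the share called down there was above it. In HCC4006ER the share called up was above that of all genes and the share called down below it. These differences in share were not tested. The counts of each partner and marker list below are set against the same shares. Those are 31.4% up and 32.1% down in HepG2S3, and 24.1% up and 24.9% down in HCC4006ER. No share of all genes called in both tests is given, so nothing is read from the number of list genes called in both. A further 18 matched partner genes in HepG2S3 and 13 in HCC4006ER were too low to be tested.

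The extracellular partners are the contactins, neuropilins, integrins and growth factor receptors that bind family members from outside. In HepG2S3, 3 of 11 rose, 4 fell and 4 had no call, with a median of -0.17. NRP1, 1 of the 4 that fell, lost its call without either HepG2S3 replicate. ITGA5, an integrin subunit, rose from 6.45 to 426 CPM (log2 fold change 5.74 ± 0.62 SE, adjusted p 0.000985 by edgeR, higher in 4 of 4 pairings), and EGFR rose from 24.7 to 445 CPM (3.86 ± 0.14). CNTN1 was also called up, but from 1 count in HepG2 to 25 in HepG2S3, a ratio of 28.5 with a counting interval of 4.67 to 1171, and it was too low to be tested without either HepG2S3 replicate. FGFR1 fell from 162 to 18.4 CPM and ITGAV from 325 to 150 CPM, while GLDN, the glial ligand gliomedin, was at least 39.7-fold lower against a floor of 3 counts over the HepG2S3 libraries. In HCC4006ER, 5 of 9 rose, 0 fell and 4 had no call, with a median of 0.84 and 4 genes past the stop. ITGA5 rose from 45.7 to 143 CPM and ITGAV from 78.4 to 244 CPM, so that ITGA5 rose in both tests and ITGAV went opposite ways. NCAM1 was called up, from 1 count in HCC4006P1 to 720 in HCC4006ER, a ratio of 768 with a counting interval of 137 to 30375.

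The cytoplasmic partners link the tails to the skeleton and to endocytosis. In HepG2S3, 6 of 13 rose, 2 fell and 5 had no call, with a median of 0.22. MSN (moesin) rose from 0.336 to 671 CPM (log2 fold change 10.63 ± 0.19 SE, adjusted p 2.59e-05 by edgeR, higher in 4 of 4 pairings). ANK3 rose from 0.278 to 6.46 CPM and ANK2 from 12.4 to 72.5 CPM, while SPTBN1 fell from 2350 to 692 CPM and NUMB from 29.9 to 24.7 CPM. In HCC4006ER, 1 of 9 rose, 4 fell and 4 had no call, with a median of -0.42 and 6 genes past the stop, MSN among them. ANK2 rose there too, from 2.40 to 12.6 CPM. ANK3 fell from 94.1 to 30.1 CPM, SPTBN1 from 989 to 751 CPM and NUMB from 54.9 to 40.8 CPM. The tested ankyrins, shared anchors of the family, therefore differed between the tests, ANK2 rising in both and ANK3 rising in one and falling in the other. ANK1 was too low to be tested in HepG2S3 and lay past the stop for HCC4006ER. There it had 94 CPM against a mean of 0.226 CPM in HCC4006P1, both scaled by totals of genes before the stop, which leave out ANK1. They are therefore higher than CPM over all genes. The HCC4006P1 mean also includes replicate 1, which lacks genes past the stop. Without either HepG2S3 replicate the calls of NUMB and DLG3 in HepG2S3 were lost, leaving 1 of the 2 that fell and 5 of the 6 that rose. In HCC4006ER, 1 of the 4 that fell, ANK3, kept its call without either HCC4006ER replicate, where SPTBN1, RDX and NUMB lost theirs, and 0 of 4 kept it when genes past the stop were kept.

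Sheddases cut the outer part of L1CAM and gamma-secretase the remaining stump. In HepG2S3, 2 of 11 rose, 5 fell and 4 had no call, with a median of 0.28. BACE1 rose from 21.5 to 65.5 CPM and PSENEN from 13.3 to 40.1 CPM. FURIN fell from 282 to 20.6 CPM (log2 fold change -4.09 ± 0.25 SE, adjusted p 0.000164 by edgeR, lower in 4 of 4 pairings) and PCSK5 from 3.13 to 0.144 CPM. In HCC4006ER, 2 of 10 rose, 3 fell and 5 had no call, with a median of -0.13 and 1 gene past the stop. BACE1 rose from 82.7 to 179 CPM and PSENEN from 52.0 to 83.1 CPM. FURIN fell from 196 to 81.9 CPM, ADAM10 from 261 to 157 CPM and ADAM17 from 117 to 78.6 CPM. ADAM10, the main L1CAM sheddase, was called down in HepG2S3 too, from 180 to 138 CPM, but its call and that of NCSTN were lost without either HepG2S3 replicate, leaving 3 of the 5 that fell. The genes called in both tests were thus BACE1 and PSENEN, both up, and FURIN and ADAM10, both down. In HCC4006ER the calls of PSENEN and ADAM17 were lost without either HCC4006ER replicate, leaving 1 of the 2 that rose, and those of PSENEN and ADAM10 when genes past the stop were kept. Over the 10 pairs the difference of ADAM10, on log2 of CPM + 1, ran from -0.67 in U10 to 0.52 in HCC827GR.

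The transcriptional regulators are factors and ligands tied to L1CAM expression or to epithelial-to-mesenchymal transition. In HepG2S3, 5 of 12 rose, 6 fell and 1 had no call, with a median of -0.32. SNAI2 rose from 0.0997 to 52.8 CPM (log2 fold change 8.71 ± 0.47 SE, adjusted p 0.000109 by edgeR, higher in 4 of 4 pairings), ZEB2 from 0.590 to 17.7 CPM and LEF1 from 0.182 to 3.19 CPM. TCF7 fell from 45.8 to 0.398 CPM, CTNNB1 from 630 to 281 CPM and TCF7L2 from 41.4 to 19.0 CPM. In HCC4006ER, 7 of 11 rose, 0 fell and 4 had no call, with a median of 0.71 and 1 gene past the stop, SNAI2. ZEB2 rose from 1.51 to 90.6 CPM and TCF7L1 from 1.66 to 8.03 CPM, and LEF1, without a count in HCC4006P1, was at least 35.2-fold higher against a floor of 3 counts over its libraries. ZEB1, ZEB2 and LEF1 were called up in both tests. SNAI1, CTNNB1 and TCF7L1 were called down in HepG2S3 and up in HCC4006ER, but each of the 3 lost 1 or both of these calls in an alternative. Their log2 fold changes moved little there. In HepG2S3, SNAI1 had -1.08, and -0.99 and -1.15 without either replicate. TCF7L1 had -0.99, and -1.08 and -0.89 without either replicate. In HCC4006ER, CTNNB1 had 0.35, and 0.33 to 0.36 where its call was lost. Without either HepG2S3 replicate, REST, SNAI1, TCF7L1 and ZEB1 lost their calls, leaving 3 of the 6 that fell and 4 of the 5 that rose. REST also lost its call without the filter on low counts and TCF7L1 with DESeq2. In HCC4006ER, SNAI1 and CTNNB1 lost theirs without either HCC4006ER replicate and when genes past the stop were kept, leaving 5 of the 7 that rose, and CTNNB1 also with DESeq2 and without the filter.

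The other immunoglobulin adhesion molecules are relatives outside the family. In HepG2S3, 3 of 12 rose, 7 fell and 2 had no call, with a median of -1.11. MCAM rose from 72.8 to 349 CPM and ALCAM from 118 to 258 CPM, the ALCAM call being lost without HepG2S3 replicate 2, which left 2 of the 3 that rose. NEGR1 was called up from 1 count to 1300 counts, a ratio of 1483 with a counting interval of 266 to 58637. CADM1 fell from 220 to 0.0809 CPM (log2 fold change -11.67 ± 0.39 SE, adjusted p 3.92e-05 by edgeR, lower in 4 of 4 pairings), BCAM from 167 to 12.9 CPM and NECTIN4 from 20.5 to 1.85 CPM. In HCC4006ER, 7 of 13 rose, 2 fell and 4 had no call, with a median of 0.79. NECTIN3, 1 of the 7 that rose, lost its call without HCC4006ER replicate 1 and when genes past the stop were kept. CADM1 rose there, from 22.6 to 339 CPM, NCAM2 rose from 1.40 to 44.2 CPM, and CNTN5, without a count in HCC4006P1, was at least 19.6-fold higher. NECTIN4 fell from 29.2 to 0.126 CPM, and CADM2 was called down from 37 counts to 1, a ratio of 34.7 with a counting interval of 5.85 to 1407. NECTIN4 fell and MCAM rose in both tests, while CADM1, CADM4 and ROBO1 fell in HepG2S3 and rose in HCC4006ER. With genes at 0 in one group set at their bound, the medians of all 5 lists were the same in both tests.

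**Figure D5:**
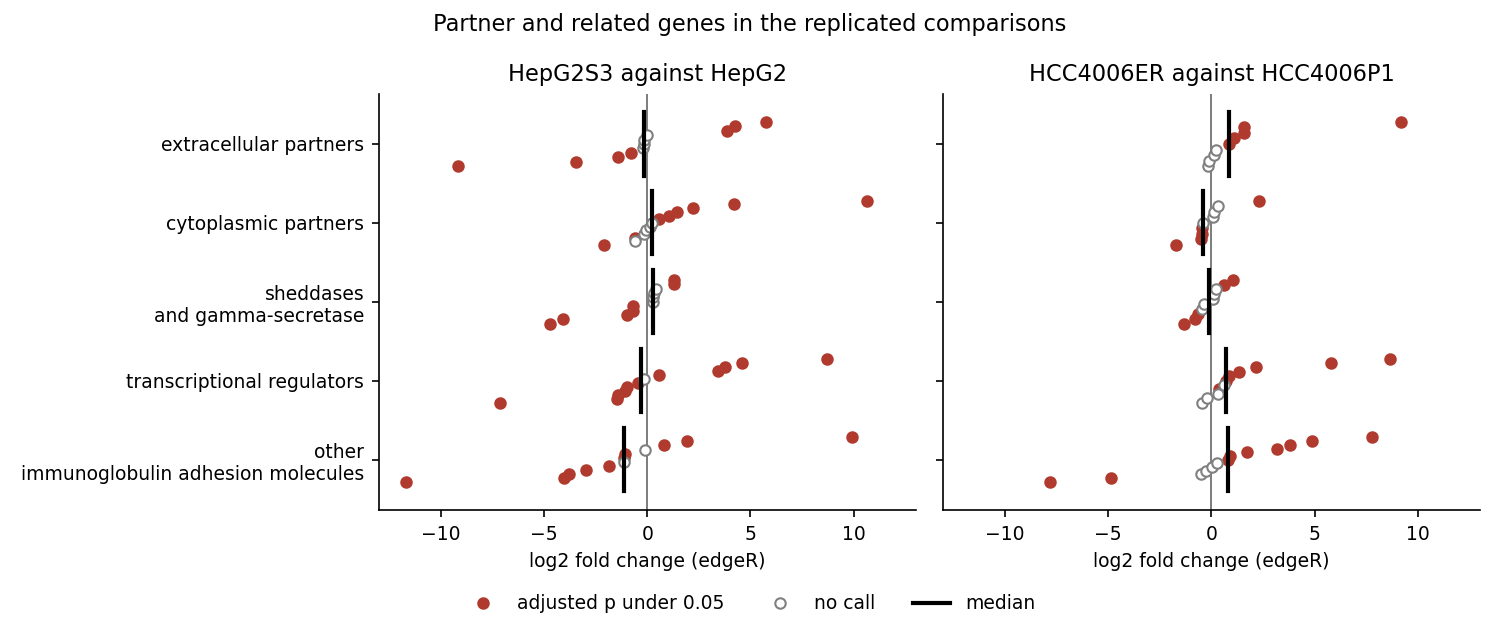
Log2 fold change by edgeR of each tested gene of the 5 lists in HepG2S3 against HepG2 and HCC4006ER against HCC4006P1, filled where the Benjamini-Hochberg adjusted p was under 0.05, with black bars at each list's median. Medians run from -1.11 to 0.28 in HepG2S3 and from -0.42 to 0.84 in HCC4006ER.

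The marker lists were read in the same tests. In HepG2S3 all 5 liver markers fell, with a median of -9.42, and the neuron and glia markers had 2 up, 2 down and 2 without a call of 6. Of 3 pancreatic duct markers 1 was up and 2 were down, of 4 ovarian markers 2 were up and 2 down, and 0 lung markers were high enough to test. In HCC4006ER, the neuron and glia markers had 2 up, 2 down and 1 without a call of 5, all 3 pancreatic duct markers fell, 1 of 2 ovarian markers fell, and 0 liver or lung markers could be tested. Among the neuron and glia markers, SNAP25 was called up in both tests, from 0.112 to 6.12 CPM in HepG2S3 and from 1 count to 37 in HCC4006ER, a ratio of 39.5 with a counting interval of 6.66 to 1600. MAP2 was called up in HepG2S3 and down in HCC4006ER.

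Each pair was also read for partner genes with at least 1 CPM on either side and a difference past 1, as a description. Of 56 such genes in HepG2S1, 16 were higher and 15 lower (median 0.04), against 25.5% and 18.4% of all genes, and of 56 in HepG2S3, 16 were higher and 14 lower (0.14), against 27.3% and 17.7%. PancB1Q had 11 higher and 8 lower of 59 (-0.03), against 6.10% and 9.41%, and PancB1V 13 and 7 of 61 (-0.11), against 8.89% and 7.25%. In HCC4006ER 21 were higher and 5 lower of 61 (0.46), against 15.2% and 9.67%, in HCC4006GR 8 and 6 of 62 (0.28), against 7.75% and 7.47%, and in HCC827GR 14 and 7 of 57 (0.32), against 10.6% and 7.67%. The medians over all genes in these 7 pairs were 0.25, 0.28, -0.12, -0.01, 0.16, -0.08 and 0.05, so the partner median was below that of all genes in the HepG2 pairs and above it in the lung pairs. U10 had 12 higher and 4 lower of 62 (0.17), against 6.27% and 5.11%, U100 12 and 1 of 65 (0.28), against 6.43% and 1.73%, and IGROV-1/CDDP 4 and 12 of 54 (-0.30), against 5.55% and 7.21%. The medians over all genes there were -0.02, 0.07 and -0.06. IGROV-1/CDDP had more partner genes lower than higher. All genes leaned the same way in that pair but less so, with 7.21% lower against 12 of 54 partner genes, a contrast that was not tested.

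Some partners recurred among the largest differences of the pairs without replicates on both sides. NCAM1 was among the 2 largest of the extracellular list in PancB1Q (24.6 to 179 CPM), PancB1V (to 209), HCC827GR (0 to 2.32), U10 (16.3 to 179), U100 (to 155) and IGROV-1/CDDP (13 to 88). CNTN1, a contactin that binds NRCAM and NFASC, was higher in PancB1Q (0.046 to 13.3 CPM) and PancB1V (to 18.5) but lower in HCC827GR (15.1 to 0.386), U10 (23.6 to 2.34) and U100 (to 3.36). It had no shared direction across backgrounds. RANBP9 led the cytoplasmic list in PancB1Q (32.8 to 104 CPM) and PancB1V (to 108). ANK2 was lower in HCC4006GR (2.57 to 0.463 CPM) and IGROV-1/CDDP (153 to 3.40) and higher in U100 (11.7 to 35.1), and ANK3 was lower in HCC4006GR (123 to 46.2) and PancB1Q (133 to 58.9) and higher in U10 (40.1 to 148), U100 (to 101) and IGROV-1/CDDP (16.7 to 44.2). The ankyrins thus differed in both directions, as in the tests. Of the sheddase list, FURIN was lower in HepG2S1 (282 to 30.7 CPM) but higher in HCC4006GR (72.3 to 153), PCSK5 was higher in HCC827GR (0.0577 to 15.9), ADAM8 was higher in U10 (4.99 to 15.2) and U100 (to 20.9), and PSEN2 was lower in IGROV-1/CDDP (30.8 to 10.8). Of the regulators, ZEB2 was higher in HepG2S1 (0.590 to 10.9 CPM), PancB1Q (5.34 to 12.3), PancB1V (to 18.0), HCC4006GR (0.147 to 15.6), HCC827GR (1.73 to 50.5) and U10 (1.12 to 5.66), and had no count in either IGROV-1 line. Of the adhesion molecules, DSCAM had no count in PancVB and 5.99 and 12.2 CPM in PancB1Q and PancB1V, NEGR1 was lower in both (36.6 to 0.350 and to 1.17 CPM), NCAM2 was higher in HCC827GR (1.5 to 35.8) and ROBO1 in IGROV-1/CDDP (1.02 to 25.5).

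Across backgrounds, 7 resistant profiles were compared with 7 parental profiles, each summed per parental line, with the parental line as a block. HCC4006P1 and HCC4006P2, which share a cell line identifier, counted as separate blocks. By edgeR's quasi-likelihood test with Benjamini-Hochberg adjustment, 0 of 15847 genes were up (0%) and 0 were down (0%), and 722 had an unadjusted p under 0.05, fewer than the 5% that no change at all would give. DESeq2 called 106, 85 up and 21 down. None of the 61 tested partner genes was called by edgeR, with medians of 0.24 for extracellular partners, 0.09 for cytoplasmic partners, 0.06 for sheddases and gamma-secretase, 0.17 for regulators and -0.06 for other adhesion molecules, against 0.01 over all genes. The marker lists likewise had 0 calls by edgeR, with medians of 0.92 for 4 neuron and glia markers, -0.94 for 3 pancreatic duct markers, -0.22 for 2 ovarian markers and -0.58 for the 1 tested lung marker, while 0 liver markers could be tested. DESeq2 called 2 partner genes, both up. NCAM1 had a log2 fold change of 3.74 ± 0.71 SE (adjusted p 0.000179 by DESeq2, 0.876 by edgeR), higher in 7 of 7 backgrounds, although it stayed at or under 0.305 CPM in the HepG2 and HCC4006P2 backgrounds. ZEB2 had 4.07 ± 0.68 SE (adjusted p 1.1e-05 by DESeq2, 0.876 by edgeR), higher in 6 of 7 backgrounds. The calls of NCAM1 and ZEB2 thus depend on the tool. With 0 calls among all genes, the edgeR fit says nothing about the lists, which were not tested as such.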

How the data were processed

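The authors deposited counts of reads per gene (whole numbers, not normalized), made per the labels with FastXClipper, Bowtie, TopHat, SAMtools and HTSeq on hg19, with no versions stated. Libraries were KAPA stranded mRNA per the labels, and the paper also names 3′ libraries and STAR without saying for which. HTSeq's summary lines, 28.0% to 42.8% of reads, were left out of totals. Of 53515 genes, 45100 (84.3%) were matched to GENCODE on GRCh37.

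Levels were CPM, and differences were log2 of CPM + 1. Tests used edgeR 4.0.16 in R 4.3.3 (quasi-likelihood, TMM, filterByExpr, Benjamini-Hochberg adjusted p under 0.05) over all genes passing the filter, with DESeq2 1.42.0 as an alternative, and were tested on simulated data. The test of HCC4006ER kept genes before the point where HCC4006P1 replicate 1 stops, which lies between GARS1-DT and GARS1, since 18.1% of replicate 2 counts lie past it. Named genes are the 3 largest log2 fold changes called in each direction per list, those called in both tests or losing a call, or the 2 largest differences in pairs without replicates on both sides. Like patterns were ranked by Pearson r of log2(CPM + 1). The lists were extracellular partners, cytoplasmic partners, sheddases and gamma-secretase, transcriptional regulators, other immunoglobulin adhesion molecules, neuron and glia markers, and liver, lung, pancreatic duct and ovarian markers. Members and lists were chosen with earlier results of these data known. Promoters are from RefSeq.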

Additional observations from a re-analysis of the deposited data

Results flagged for a closer look

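The NRCAM difference was singled out because it took opposite directions in different parental backgrounds: 3.95 in HepG2S1 and 4.41 in HepG2S3, against -3.09 in IGROV-1/CDDP, on log2 of CPM + 1. The contrast between these backgrounds was not tested.

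The NFASC level of 0.374 CPM in HCC4006P1 replicate 1 was singled out because that library was left out of the levels and differences. The total of replicate 1 lacks the genes past the stop, so its CPM is not on the same scale as the 0.256 CPM of replicate 2. The difference between them was not tested.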

How the results depend on the processing

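All 16 member differences past 1 kept their side in all 65 alternative values, and with 0.1 CPM added instead of 1 the count was 23. The number of genes higher by at least 1 in every parental background was 1, and 4 with 0.1 CPM added, an alternative chosen after seeing the data. In HCC4006ER, 6266 genes were called, with a range of 4051 (without HCC4006ER replicate 1) to 8370 when 1 library was left out, and 3417 with all genes kept. Across 7 backgrounds edgeR called 0 genes and 0 partner genes, and DESeq2 106 and 2. Of 74 partner calls, 20 were lost in some alternative and 0 turned sign. Replicates share only a letter, and deviations correlated at 0.0391 (HepG2) and 0.377 (HCC4006). With the letter as a block, 10561 and 7787 genes were called, against 10744 and 6266. No other total of calls moved by over 1.5 times, but within lists fewer calls were kept without 1 resistant replicate: in HepG2S3, regulators down 3 of 6, sheddases down 3 of 5 and cytoplasmic partners down 1 of 2, and in HCC4006ER, cytoplasmic partners down 1 of 4, sheddases up 1 of 2 and all partner genes down 5 of 9. Most lines had 1 library, so spread between cultures is unknown there.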
